A study of Mus musculus with 30 samples.

Results

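The mitochondrion keeps its own set of chaperones and proteases, and the transcripts of 10 genes of that set were followed here in differentiating murine erythroleukemia (MEL) cells with and without Abcb10. The genes were *Hspd1*, *Hspe1*, *Hspa9*, *Trap1*, *Lonp1*, *Clpp*, *Clpx*, *Yme1l1*, *Oma1* and *Afg3l2*, 10 of the 54532 genes in the count table, chosen by symbol, and each had more than 3 reads in all 30 libraries. MEL cells are a mouse line arrested at an early erythroid stage that makes hemoglobin when DMSO is added, and Abcb10 is an ATP-binding cassette transporter of the inner mitochondrial membrane that rises as erythroid cells mature. RNA was collected from WT cells and from Abcb10-null cells before DMSO was added (day 0) and at days 2 and 5 of culture with DMSO at 1.5%, and each genotype and day had 5 libraries. The Abcb10-null cells were a single clone made by CRISPR/Cas9 cutting within *Abcb10*, so a difference between the genotypes and a difference between that clone and the WT cells cannot be told apart.

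Most mitochondrial proteins are made in the cytosol and enter the organelle unfolded. Hspa9 (mortalin, the mitochondrial Hsp70) pulls them through the inner membrane, and the barrel of Hspd1 (Hsp60) with its lid Hspe1 (Hsp10) gives them a closed space to fold in. Trap1 is the mitochondrial Hsp90. Lonp1 and the Clpp peptidase with its unfoldase Clpx degrade damaged or surplus proteins in the matrix, while Yme1l1, Oma1 and Afg3l2 cut proteins in or at the inner membrane. Clpx and Lonp1 have ties to heme synthesis through Alas1 and Alas2, the enzymes of its first step, and Oma1 cleaves Dele1, which carries mitochondrial stress to the kinase Eif2ak1 (HRI) and so to Atf4.

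*Hspd1* and *Hspe1* lie head to head on chromosome 1 of GRCm38, *Hspd1* on the minus strand from 55077835 to 55088243 and *Hspe1* on the plus strand from 55088132 to 55091307. Their promoter letters are shown because the transcripts of this pair fell together in the results that follow, and those of *Lonp1* because it moved differently. Each window holds 250 bases before and 50 bases after a RefSeq start (GRCm38.p6), and capitals mark matches to any of the motifs listed after the sequences. The *Hspe1* window is chr1:55087898-55088197 (plus strand), the *Hspd1* window is chr1:55088194-55088493 (minus strand) and the *Lonp1* window is chr17:56626854-56627153 (minus strand).
Hspe1: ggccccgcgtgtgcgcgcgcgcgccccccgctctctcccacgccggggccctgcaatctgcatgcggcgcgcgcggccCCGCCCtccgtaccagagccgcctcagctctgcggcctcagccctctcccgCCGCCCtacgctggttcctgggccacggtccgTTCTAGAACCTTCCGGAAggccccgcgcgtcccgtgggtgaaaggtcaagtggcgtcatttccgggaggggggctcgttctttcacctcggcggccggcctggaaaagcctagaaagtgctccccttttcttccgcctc
Hspd1: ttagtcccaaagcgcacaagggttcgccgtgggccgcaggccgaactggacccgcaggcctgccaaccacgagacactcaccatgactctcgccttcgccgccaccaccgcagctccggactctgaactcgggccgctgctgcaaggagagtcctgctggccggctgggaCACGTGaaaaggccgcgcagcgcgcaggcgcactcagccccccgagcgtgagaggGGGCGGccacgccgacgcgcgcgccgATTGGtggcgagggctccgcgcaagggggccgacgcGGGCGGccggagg
Lonp1: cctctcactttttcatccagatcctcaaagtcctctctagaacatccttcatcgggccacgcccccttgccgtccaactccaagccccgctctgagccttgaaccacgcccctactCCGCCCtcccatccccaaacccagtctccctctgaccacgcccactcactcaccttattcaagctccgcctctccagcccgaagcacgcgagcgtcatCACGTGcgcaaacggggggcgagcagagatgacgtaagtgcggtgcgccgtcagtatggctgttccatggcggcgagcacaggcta
The *Hspe1* window carried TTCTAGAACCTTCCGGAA at chr1:55088059-55088076, 18 bases that hold overlapping matches to both forms of the heat shock element unit, GAANNTTC and TTCNNGAA. A second *Hspd1* window in the RefSeq table, 285 bases of which it shares with the *Hspe1* window, carried the same 18 bases. The window of *Clpp* also held a match to TTCNNGAA. Over all 32851 windows of the table, searched on both strands, GAANNTTC was found in 7.86% and TTCNNGAA in 8.52%. The Sp1 box GGGCGG was found in the windows of 7 of the 8 genes with a window in the table, against 35.7% of all windows, and the E-box CACGTG in those of *Hspd1* and *Lonp1*, against 7.15%. CCAAT, the NF-Y box, stood in the windows of *Hspd1*, *Clpx* and *Yme1l1*, against 37.4%. TGATGNAA, letters of the C/EBP-ATF response element, stood in none of the 8, against 3.97%, and none among so few genes is near that share. *Hspa9* and *Afg3l2* had no window in the table, so their promoters were not searched.

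Library totals ranged from 9906783 to 20157768 reads assigned to genes, and the lowest count of any of the 10 genes in a library was 123 (*Clpp*). *Abcb10* averaged 119 ± 5.65 CPM (counts scaled by the TMM-adjusted library total, the unit CPM used throughout, SD, n = 5) in WT at day 0 and 74.3 ± 4.82 without the transporter, and 1223 ± 45.6 against 212 ± 30.2 at day 5, a log2 difference of -2.54 ± 0.12 (SE). The summed level of 10 erythroid markers ranged from 10070 to 21810 CPM in WT and from 4860 to 6198 CPM in Abcb10-null libraries at day 5, and all 10 were lower in Abcb10-null cells at that day. Of 26 markers of other blood, stromal and epithelial cells, 12 to 22 exceeded 3 reads in at least one library of a group, their sum stayed between 157 and 609 CPM, and the neutrophil marker *Ly6g* and the basophil marker *Mcpt8* were at 3 reads or fewer in every library of several groups. At day 0, 6 of 10 tested markers of other cells were higher in Abcb10-null cells, against 19.7% of all genes (median log2 difference 0.75). The largest rise was that of the mast cell receptor subunit *Fcer1a* (0.187 ± 0.173 to 2.38 ± 1.07 CPM). Within the null clone 10 of 11 were lower at day 2 and 8 of 11 at day 5, against 20.1% and 33.3% of all genes. In WT cells 3 of 5 tested were lower at each of these days, against 30.7% and 34.7%. The part of these markers in the results was not tested. At day 5, 5 of the 26 could be tested between the genotypes, and the platelet genes *Pf4* (0.86 ± 0.28) and *Gp9* (log2 difference of -1.29 ± 0.36) were called. Libraries that stood apart are named beside most of the results they touch: replicate 5 of WT at day 5, and replicates 2 and 5 of Abcb10-null at day 2. In RNA from whole cultures, fewer cells of a kind and less RNA per cell cannot be told apart.

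In WT cells the transcripts of most of these chaperones and proteases fell as the cells differentiated, whereas in Abcb10-null cells the change was higher for 6 of them by day 5, and *Hspa9* rose. edgeR's quasi-likelihood test with Benjamini-Hochberg adjustment over all genes (adjusted p under 0.05) called 8 of the 10 genes lower in WT cells at day 2 against day 0 and 7 at day 5, in comparisons where 30.7% and 34.7% of all genes were called lower and 31.5% and 36.5% higher. In Abcb10-null cells 5 were called lower at day 2 and 6 at day 5, against 20.1% and 33.3% of all genes, and *Hspa9* alone was called higher at day 5, where 33.9% of all genes were (23.1% at day 2). The median log2 change of the 10 genes at day 5 was -1.10 in WT and -0.42 in Abcb10-null cells, and that of all genes tested was 0.02 and 0.01. Together the 10 genes summed to 5031 ± 194 CPM in WT at day 0 and to 5046 ± 255 CPM in the null clone, and at day 5 to 1935 ± 449 and 3993 ± 447 CPM (SD, n = 5).

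**Figure D1:**
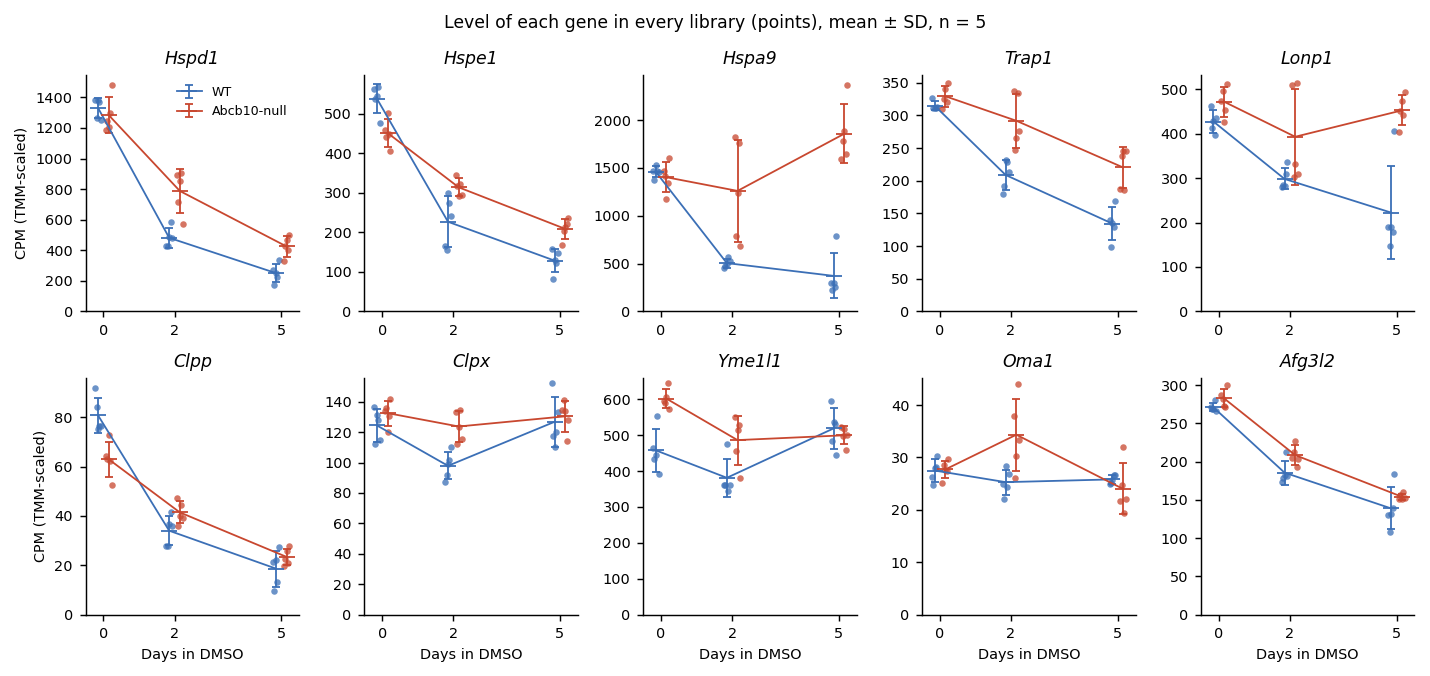
TMM-scaled CPM of the 10 genes (vertical axes, from 0) against days in DMSO, with a point for each library, WT in blue and Abcb10-null in red, and bars and lines for mean ± SD (n = 5). *Hspa9* in Abcb10-null cells ends at 1596 to 2364 CPM while WT falls to 228 to 791 CPM, and *Hspd1*, *Hspe1*, *Clpp* and *Afg3l2* decline in both genotypes.

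Between the genotypes, 3 of the genes differed before DMSO, 4 at day 2 and 5 at day 5. At day 0, *Yme1l1* was called higher in Abcb10-null cells and *Hspe1* and *Clpp* lower, in a comparison where 19.7% of all genes were called higher and 16.2% lower. With all 30 libraries in one fit the calls of *Hspe1* and *Clpp* were lost (adjusted p = 0.307 and 0.196). At day 2, *Hspd1*, *Hspa9*, *Trap1* and *Clpx* were called and each was higher, where 14.9% of all genes were higher and 16.9% lower. At day 5, *Hspd1*, *Hspe1*, *Hspa9*, *Trap1* and *Lonp1* were called and each was higher, where 19.8% were higher and 17.8% lower. The median log2 difference of the 10 genes was 0.03, 0.37 and 0.51 at days 0, 2 and 5, and that of all genes was between -0.02 and 0.00. The day 2 count moved with single libraries: it was 2 without WT replicate 1, Abcb10-null replicate 1 or Abcb10-null replicate 4, 6 without Abcb10-null replicate 2 and 5 without Abcb10-null replicate 5. Without WT replicate 5 the day 5 count was 6, all of them higher.

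The change from day 0 was itself compared between the genotypes with an interaction term. *Hspd1*, *Hspe1*, *Hspa9*, *Trap1* and *Clpp* had a higher change in Abcb10-null cells by day 2, where 12% of all genes had a higher and 10.8% a lower change. By day 5 the same 5 genes and *Lonp1* were called in that direction, and *Yme1l1* was called in the other, where the shares over all genes were 16.8% and 14.7%. *Hspe1* and *Clpp* began below WT and *Yme1l1* above it at day 0, so their interaction terms hold a day 0 difference as well as a later one. At day 2 the calls of *Trap1* and *Clpp* were lost with all 30 libraries in one fit (adjusted p = 0.0713 and 0.0644), and at day 5 that of *Yme1l1* was lost without a filter on low counts, keeping any gene with 1 count or more (adjusted p = 0.141). The comparisons of the 2 days within a genotype share their day 0 libraries.

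**Figure D2:**
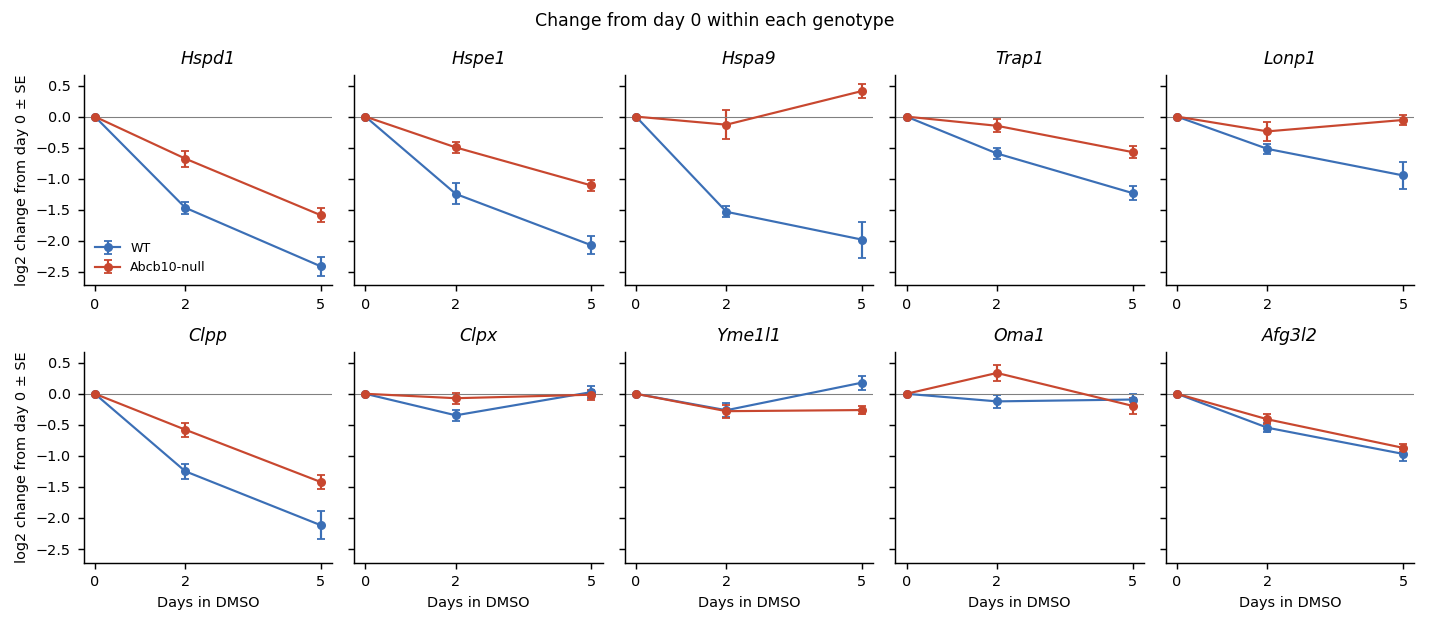
Log2 change from day 0 ± SE (vertical axis, edgeR fit) against days in DMSO for each gene, WT in blue and Abcb10-null in red. At day 5 *Hspa9* stands at -1.98 in WT and 0.41 in Abcb10-null cells, and *Hspd1* at -2.41 and -1.59.

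*Hspd1*, the barrel of the chaperonin, fell in both genotypes and remained higher in Abcb10-null cells. In WT libraries 1 to 5 it stood at 1381, 1266, 1381, 1371 and 1254 CPM at day 0, at 429, 427, 485, 584 and 481 at day 2, and at 270, 171, 250, 224 and 338 at day 5. In Abcb10-null libraries 1 to 5 it stood at 1187, 1243, 1206, 1299 and 1484 CPM at day 0, at 893, 717, 850, 906 and 573 at day 2, and at 328, 427, 468, 399 and 502 at day 5. The genotypes overlapped at day 0, and at each later day 4 of the 5 Abcb10-null libraries lay above every WT library. The exceptions were Abcb10-null replicate 5 at day 2, just under the highest WT library, and Abcb10-null replicate 1 at day 5, under WT replicate 5. The log2 difference was -0.06 ± 0.06 (SE) at day 0, 0.66 ± 0.15 at day 2 (adjusted p = 0.00652) and 0.76 ± 0.16 at day 5 (adjusted p = 0.00311).

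*Hspe1*, the lid of the same chamber, started lower in Abcb10-null cells and ended higher. Its WT libraries read 563, 538, 545, 566 and 476 CPM at day 0, 166, 154, 299, 273 and 241 at day 2, and 159, 82.5, 131, 121 and 147 at day 5. Its Abcb10-null libraries read 459, 440, 502, 448 and 406 CPM at day 0, 345, 316, 291, 322 and 293 at day 2, and 168, 204, 213, 220 and 236 at day 5. At day 0 only Abcb10-null replicate 3 reached into the WT range, at day 2 the groups overlapped at WT replicate 3, and at day 5 they did not overlap. The log2 difference was -0.26 ± 0.07 at day 0 (adjusted p = 0.00509), 0.42 ± 0.17 at day 2 (adjusted p = 0.0698, not called) and 0.70 ± 0.15 at day 5 (adjusted p = 0.00355). Without WT replicate 3 the day 2 difference was 0.54 with adjusted p = 0.0278. Of 7 alternatives that kept all libraries, 2 called it. These were all 30 libraries in one fit (0.47, adjusted p = 0.0127) and all genes with at least 1 count (0.44, adjusted p = 0.0405). The exons of *Hspd1* and *Hspe1* share 112 bases on opposite strands, 4.24% of the exon bases of *Hspd1* and 7.60% of those of *Hspe1*, and whether the counting used strand is not given in the sources used here, so reads there cannot be assigned to one gene with certainty.

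*Hspa9*, the motor that draws precursors into the matrix, differed most between the genotypes among the 10 genes at days 2 and 5. At day 0 its WT libraries held 1462, 1374, 1534, 1471 and 1453 CPM and its Abcb10-null libraries 1467, 1417, 1178, 1339 and 1608 CPM. The ranges overlapped, and the log2 difference was -0.06 ± 0.07 (adjusted p = 0.493). At day 2 WT libraries had dropped to 456, 471, 491, 573 and 531 CPM, while Abcb10-null libraries spread over 1819, 791, 1238, 1763 and 682 CPM. The groups did not overlap, and replicates 2 and 5 of the null clone were far below its replicates 1 and 4. The log2 difference was 1.27 ± 0.24 (adjusted p = 0.0043).

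By day 5 *Hspa9* stood at 293, 228, 292, 250 and 791 CPM in WT and at 1596, 1781, 1890, 1648 and 2364 CPM in Abcb10-null libraries. The groups did not overlap, and WT replicate 5 alone among the WT libraries was above 293 CPM. The difference was 5.01-fold (log2 2.32 ± 0.30, adjusted p = 0.000108), and without WT replicate 5 it was 2.78 ± 0.14 (adjusted p = 1.07e-07). From day 0 to day 5 *Hspa9* fell by 1.98 ± 0.29 on the log2 scale in WT and rose by 0.41 ± 0.11 in Abcb10-null cells (adjusted p = 0.00383), a rise whose adjusted p was 0.163 when all 30 libraries entered one fit. The interaction was 2.40 ± 0.32 (adjusted p = 6.87e-06). *Hspa9* supplied 14.4% to 29.6% of the summed CPM of the 10 genes in WT and 44.9% to 50.6% in Abcb10-null libraries at day 5, from 28.2% to 30.2% and 24.8% to 29.5% at day 0. The 29.6% in WT at day 5 was that of replicate 5, with 791 CPM of *Hspa9* in a sum of 2668 CPM.

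*Trap1*, the Hsp90 of the matrix, declined more slowly in Abcb10-null cells. Its WT libraries gave 327, 312, 312, 311 and 312 CPM at day 0, 179, 192, 231, 228 and 213 at day 2, and 140, 98.1, 135, 129 and 169 at day 5. Its Abcb10-null libraries gave 310, 326, 341, 320 and 350 CPM at day 0, 338, 246, 265, 334 and 275 at day 2, and 188, 238, 246, 185 and 245 at day 5. The genotypes overlapped at day 0 and did not at days 2 and 5. The log2 difference was 0.06 ± 0.05, 0.43 ± 0.12 (adjusted p = 0.0174) and 0.71 ± 0.14 (adjusted p = 0.00171) at the 3 days. The day 2 call was lost without WT replicate 1, Abcb10-null replicate 1 or Abcb10-null replicate 4, with a lowest difference of 0.38.

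**Figure D3:**
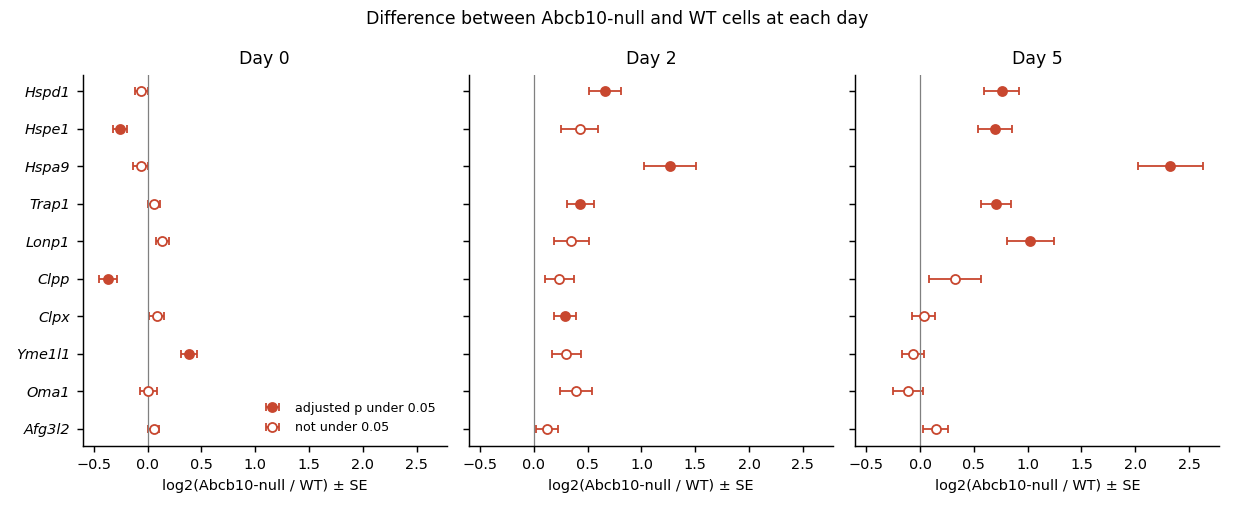
Log2 difference between Abcb10-null and WT cells ± SE (horizontal axis, edgeR fit) for each gene at days 0, 2 and 5, filled where the adjusted p was under 0.05. *Hspa9* moves from -0.06 to 1.27 and 2.32, while *Clpx*, *Yme1l1*, *Oma1* and *Afg3l2* lie between -0.11 and 0.14 at day 5.

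Among the matrix proteases, *Lonp1* was called higher in Abcb10-null cells at day 5 and *Clpp* and *Clpx* were not. *Lonp1* read 463, 413, 429, 396 and 436 CPM in WT and 473, 495, 426, 453 and 512 CPM in Abcb10-null libraries at day 0. At day 2 it read 280, 285, 282, 309 and 335 CPM in WT and 509, 303, 331, 514 and 309 CPM in Abcb10-null libraries. Abcb10-null replicates 1 and 4 were above every WT library and the other 3 were within the WT range, and the log2 difference of 0.35 ± 0.16 was not called (adjusted p = 0.119). At day 5 it read 190, 147, 190, 178 and 406 CPM in WT and 404, 451, 473, 442 and 494 CPM in Abcb10-null libraries. WT replicate 5 was the only point of overlap, just above Abcb10-null replicate 1. The day 5 difference was 1.02 ± 0.22 (adjusted p = 0.00292), and without WT replicate 5 it was 1.34 ± 0.10 (adjusted p = 1.87e-06). In Abcb10-null cells the change from day 0 to day 5 was -0.05 ± 0.08, and in WT cells *Lonp1* fell by 0.95 ± 0.22.

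*Clpp*, the peptidase chamber that pairs with Clpx, fell steeply in both genotypes. Its WT libraries read 92.0, 84.0, 75.4, 76.4 and 76.4 CPM at day 0, and its Abcb10-null libraries read 64.4, 63.2, 72.7, 62.2 and 52.6 CPM, all below WT. By day 5 WT libraries read 21.2, 9.36, 22.1, 13.2 and 27.5 CPM and Abcb10-null libraries 19.7, 22.6, 25.6, 21.1 and 28 CPM, with overlap. The log2 difference went from -0.37 ± 0.08 at day 0 (adjusted p = 0.00248) through 0.24 ± 0.14 at day 2 to 0.32 ± 0.24 at day 5, and the later values were not called (adjusted p = 0.199 and 0.305). The interaction at day 5 was 0.70 ± 0.26 (adjusted p = 0.0405), a call kept in 8 of the 20 fits that left out a library.

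*Clpx*, the ATP-driven unfoldase that feeds Clpp, fell in WT cells by day 2, by 0.35 ± 0.09 on the log2 scale (adjusted p = 0.00426), and the other changes from day 0 were not called. At days 0, 2 and 5 it averaged 124 ± 10.8, 97.8 ± 8.91 and 127 ± 16.6 CPM in WT cells (SD, n = 5). The Abcb10-null means were 132 ± 8.20, 124 ± 10.04 and 130 ± 10.2 CPM. At day 2 the Abcb10-null libraries, from 112 to 134 CPM, lay above the WT libraries, from 86.9 to 110 CPM. That difference of 0.29 ± 0.10 passed the test narrowly (adjusted p = 0.0458) and kept the call in 3 of the 10 fits without a library. At day 5 the groups overlapped and the difference was 0.03 ± 0.10.

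*Yme1l1*, whose protease faces the intermembrane space, was the one gene of the 10 that was called higher in Abcb10-null cells before DMSO and not after 5 days. At day 0 it read 464, 434, 446, 555 and 393 CPM in WT and 596, 589, 607, 645 and 574 CPM in Abcb10-null libraries, without overlap. The log2 difference was 0.39 ± 0.08 (adjusted p = 0.000583). At day 5 it read 595, 485, 537, 532 and 446 CPM in WT and 524, 499, 517, 460 and 500 CPM in Abcb10-null libraries, with the Abcb10-null range inside the WT range, and the difference was -0.06 ± 0.10 (adjusted p = 0.652). The change from day 0 to day 5 was 0.18 ± 0.11 in WT (adjusted p = 0.162) and -0.26 ± 0.07 in Abcb10-null cells (adjusted p = 0.00403), and the interaction was -0.43 ± 0.13 (adjusted p = 0.0119). The day 2 means were 381 ± 52.7 CPM (WT) and 487 ± 68.4 CPM (Abcb10-null), with overlap. The day 2 difference of 0.30 ± 0.13 was not called (adjusted p = 0.0973), and without WT replicate 3 (475 CPM) it was 0.39 (adjusted p = 0.041), as it was called without Abcb10-null replicate 5 (0.38, adjusted p = 0.0345) and with all 30 libraries in one fit (0.35, adjusted p = 0.00901).

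*Oma1*, the stress-activated metalloprotease that cuts Opa1 and Dele1, had the lowest level of the 10 genes per kilobase of transcript in every group. The WT means were 27.5 ± 2.12, 25.3 ± 2.41 and 25.8 ± 0.818 CPM at days 0, 2 and 5, and those of the null clone were 27.7 ± 1.66, 34.3 ± 6.92 and 23.99 ± 4.87 CPM. At day 2 the Abcb10-null libraries read 37.9, 26.1, 30.4, 44.0 and 33.4 CPM, and replicate 2 alone fell within the WT range of 22.04 to 28.4 CPM. The log2 difference at day 2 was 0.39 ± 0.15 (adjusted p = 0.0596), and 0.47 ± 0.14 (adjusted p = 0.0156) without that library. Of 7 alternatives that kept all libraries, 2 called it. These were all 30 libraries in one fit (0.44, adjusted p = 0.00539) and the fit without globin, mitochondria-encoded, histone and small non-coding RNA genes (0.42, adjusted p = 0.0481). The differences at days 0 and 5 were 0.00 ± 0.08 and -0.11 ± 0.14.

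*Afg3l2*, a subunit of the matrix-facing m-AAA protease, fell in both genotypes. Over the 3 days the WT means were 271 ± 5.47, 186 ± 15.7 and 139 ± 27.5 CPM, beside 283 ± 11.7, 208 ± 12.7 and 154 ± 3.70 CPM in the null clone. The change to day 5 was -0.97 ± 0.12 in WT (adjusted p = 6.45e-06) and -0.87 ± 0.06 in Abcb10-null cells (adjusted p = 7.98e-09). The interaction was 0.11 ± 0.13 (adjusted p = 0.579), and no difference between the genotypes was called at any of the 3 days over all libraries. Without WT replicate 5 the day 5 difference was 0.25 ± 0.09 (adjusted p = 0.0346).

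Per length of transcript, *Hspe1*, *Hspd1* and *Hspa9* stood above the other 7 genes before differentiation. At day 0 in WT cells *Hspe1* had 695 ± 47.0, *Hspd1* 549 ± 26.7 and *Hspa9* 479 ± 18.7 CPM per kilobase of the principal transcript, and these 3 did not overlap one another. *Lonp1* at 145 and *Trap1* at 136 CPM per kilobase overlapped, *Yme1l1* at 97.3, *Afg3l2* at 87.5 and *Clpp* at 82.2 overlapped in sequence, and *Clpx* at 43.1 and *Oma1* at 14.4 closed the order. At day 5 in WT cells *Hspe1* (165), *Hspa9* (122), *Yme1l1* (110) and *Hspd1* (103) overlapped. *Hspa9* ranged there from 74.8 to 259 CPM per kilobase, and the highest value was that of WT replicate 5, which stood apart. In Abcb10-null cells at day 5 *Hspa9* led at 609 ± 101 CPM per kilobase, without overlap with *Hspe1* at 269 ± 32.7, and *Hspd1* at 175 and *Lonp1* at 153 followed. Dividing by all annotated exon bases in place of the principal transcript put *Hspd1* before *Hspe1* in every group, and left *Hspa9* first in Abcb10-null cells at day 5.

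The stress transcription factors *Atf4*, *Ddit3* (CHOP) and *Atf5* were read in the libraries that stood apart for *Hspa9*. In WT replicate 5 at day 5, *Atf4* was 416 CPM against 135 to 189 in the other 4 libraries, *Ddit3* was 322 against 54.7 to 72.6, and *Atf5* was 52.2 against 4.82 to 7.38. *Abcb10* in that library was 1264 CPM, at the top of the WT range, and *Alas2* was 4062 CPM against 5427 to 7218. Among Abcb10-null libraries at day 2, *Ddit3* read 504, 29.3, 497, 515 and 219 CPM and *Atf4* read 581, 193, 611, 644 and 390 CPM in replicates 1 to 5. Replicates 2 and 5, the lowest for *Hspa9*, were also the lowest for *Atf4* and *Ddit3*, and replicate 3 was high for these factors but within the WT range for *Lonp1*. *Atf5* read 15.1, 6.49, 12.5, 10.3 and 10.7 CPM in the same libraries, so replicate 2 was lowest and replicate 5 lay within the group.

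**Figure D4:**
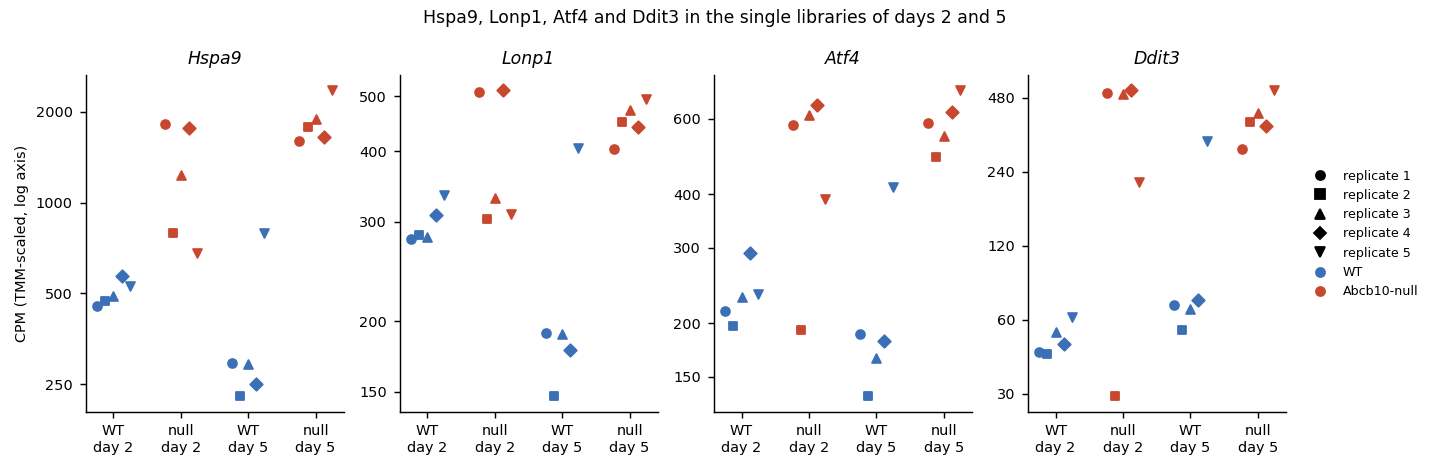
TMM-scaled CPM (vertical axes, log scale) of *Hspa9*, *Lonp1*, *Atf4* and *Ddit3* in each library of days 2 and 5, with a symbol for each replicate number, WT in blue and Abcb10-null in red. WT replicate 5 at day 5 lies apart from the other WT libraries in all 4 plots (*Hspa9* 791 CPM against 228 to 293), and Abcb10-null replicate 2 at day 2 is the lowest of its group for *Lonp1*, *Atf4* and *Ddit3*.

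After subtraction of each group's mean log2 CPM, the deviations of *Hspa9* over the 30 libraries correlated with those of *Lonp1* (Pearson r = 0.941), *Hspd1* (0.823), *Atf4* (0.815) and *Ddit3* (0.755), and less with those of *Hspe1* (0.374) and *Yme1l1* (0.129). These are descriptions across libraries that share depth and a normalization, and how much of each r rests on the libraries that stood apart was not tested. The part of these factors in the level of *Hspa9* or *Lonp1* was not tested. Over all libraries at day 5 the log2 difference between the genotypes was 1.43 ± 0.25 for *Atf4*, 1.77 ± 0.43 for *Ddit3* and 1.66 ± 0.56 for *Atf5* (adjusted p = 0.000752, 0.00604 and 0.0327), and without WT replicate 5 it was 1.79, 2.58 and 2.96. The *Atf5* call was kept in 2 of the 10 fits without a library. At day 0 *Atf4* and *Ddit3* were lower in Abcb10-null cells, by a log2 difference of -0.48 ± 0.05 and -0.38 ± 0.06, when *Hspa9* and *Lonp1* did not pass the test. With all 30 libraries in one fit these day 0 calls were lost (adjusted p = 0.206 and 0.647).

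Transcripts of the relay that Oma1 feeds were also counted, and neither cleavage of Dele1 nor activity of HRI can be read from them. *Dele1*, the Oma1 substrate that activates HRI, had day 5 means of 10.5 ± 2.40 CPM (WT) and 12.7 ± 2.19 CPM (Abcb10-null), a difference of 0.27 ± 0.19 that was not called (adjusted p = 0.292). From day 0 to day 5 *Eif2ak1* itself rose from 15.9 ± 2.50 to 76.7 ± 41.9 CPM in WT and from 12.8 ± 1.30 to 38.2 ± 10.3 CPM in Abcb10-null cells. The genotype difference at day 5 was -1.02 ± 0.30 (adjusted p = 0.0164), and -0.64 without WT replicate 2 (150 CPM against 51.2 to 74.4). At day 2 it was -1.05 ± 0.19 (adjusted p = 0.00328), without overlap of the groups. At day 0 it was -0.32 ± 0.12 (adjusted p = 0.0384), a call kept in 4 of the 10 fits without a library. *Opa1*, the fusion protein cut by both Oma1 and Yme1l1, was not called at any day, with differences of -0.03 ± 0.07, -0.09 ± 0.13 and -0.21 ± 0.11. The prohibitins *Phb* and *Phb2*, which form the ring around the m-AAA protease, were higher in Abcb10-null cells at day 5 by 0.56 ± 0.20 (adjusted p = 0.0454) and 0.77 ± 0.19 (adjusted p = 0.00636). The *Phb* call was kept in 2 of the 10 fits without a library and was lost with DESeq2's size factors (adjusted p = 0.0502). Without WT replicate 5 the differences of *Phb* and *Phb2* were 0.74 and 1.01. *Alas1* was lower by 0.59 ± 0.14 and *Alas2* by 1.37 ± 0.18 on the log2 scale at day 5 (log2 differences of -0.59 and -1.37). Before DMSO *Alas2* was already lower in Abcb10-null cells (log2 difference of -1.35 ± 0.07), while *Alas1* was called higher (0.42 ± 0.10).

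Of the other mitochondrial chaperones and cofactors, 9 of 10 were tested and 6 were higher in Abcb10-null cells at day 5, against 19.8% of all genes. Without WT replicate 5 the count was 7. Over all libraries the median log2 difference of the 9 was 0.52. The largest was that of *Dnaja3*, the J protein partner of Hspa9, from 68.7 ± 23.8 CPM in WT to 123 ± 25.9 CPM (0.84 ± 0.20, adjusted p = 0.00578). *Hscb*, the J protein of iron-sulfur cluster assembly, *Clpb*, a disaggregase, and *Timm44* and *Pam16* of the import motor were also higher, by 0.77, 0.73, 0.72 and 0.52. At day 0 *Hscb* was already called higher in Abcb10-null cells (0.46 ± 0.10) and *Pam16* was called lower (log2 difference of -0.49 ± 0.08). *Grpel1*, the nucleotide exchange factor of Hspa9, was higher at day 5 by 0.39 ± 0.14 (adjusted p = 0.0396). In WT cells 7 of these 9 fell by day 5, led by *Timm44*, from 205 ± 10.5 to 75.7 ± 19.7 CPM.

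Of 13 other mitochondrial proteases tested, 7 were higher and 2 lower in Abcb10-null cells at day 5. Over all genes the shares were 19.8% higher and 17.8% lower. Without WT replicate 5 the counts were 7 and 3. *Immp2l*, a subunit of the inner membrane peptidase, rose most at 1.13 ± 0.33 (3.38 ± 1.53 to 7.38 ± 2.76 CPM), and *Parl*, the rhomboid protease of the inner membrane, was higher by 1.00 ± 0.14 (adjusted p = 0.000161). *Htra2*, a serine protease of the intermembrane space, was lower by 0.76 ± 0.18 (log2 -0.76, adjusted p = 0.00495), and the aminopeptidase *Xpnpep3* had a log2 difference of -0.68 ± 0.12. *Spg7*, which assembles with Afg3l2, was not called (0.03). Among 11 partners and substrates of the 10 genes, 4 were higher and 2 lower, against 19.8% and 17.8% of all genes. These were led by *Pgam5* (0.93 ± 0.17) and *Alas2*.

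Of 13 protein import genes, 9 were higher in Abcb10-null cells at day 5, led by *Timm8a1* (1.22 ± 0.20, from 15.6 ± 3.84 to 36.3 ± 8.99 CPM). By the interaction term 12 of 13 had a higher change from day 0, led by *Timm10* (1.43 ± 0.24). Over all genes the shares were 19.8% and 16.8%. Without WT replicate 5 these import counts were 11 and 13. In WT cells 12 of the 13 fell by day 5, and *Tomm40*, the pore of the outer membrane, fell by 2.64 ± 0.24 on the log2 scale. Genes that mark mitochondrial content (*Vdac1*, *Cs*, *Cycs* and others, 11 in all) fell in all 11 cases in WT cells by day 5, and 3 of them were higher in Abcb10-null cells at day 5, with a median difference of 0.28, and 7 had a higher change by the interaction term (median 0.52). At day 0, 5 of the 13 import and 5 of the 11 content genes were called lower in Abcb10-null cells, against 16.2% of all genes. The interaction counts of both lists hold that day 0 difference as well as a later one. Mitochondria-encoded genes held 1.25% to 2.40% of the counts in WT and 1.32% to 1.87% in Abcb10-null libraries at day 5. The 1.25% was that of WT replicate 5. The other WT libraries held 1.874% to 2.401%, above every Abcb10-null library (highest 1.869%). The part of mitochondrial content, or of the lower erythroid markers, in the levels of the chaperones and proteases was not tested.

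Chaperones of other compartments also fell over time. By day 5, 17 of 19 cytosolic and 13 of 14 ER chaperones were lower in WT cells (median log2 change -1.25 and -1.34, beside -1.10 for the 10 genes), and 17 and 11 were lower in Abcb10-null cells (-0.97 and -0.88, beside -0.42). Between the genotypes, of 19 cytosolic chaperones tested, 8 were higher and 4 lower in Abcb10-null cells at day 5, with a median of 0.02, from *Cct6a*, a subunit of the cytosolic chaperonin (0.94 ± 0.13), to *Hsph1*, an Hsp110 (log2 difference of -1.22 ± 0.15). Of 14 ER chaperones, 7 were higher at day 5, led by *Dnajb9* (1.27 ± 0.16, from 10.5 ± 1.595 to 25.6 ± 3.74 CPM). Over all genes 19.8% were higher and 17.8% lower. Without WT replicate 5, 9 cytosolic chaperones were higher and 4 lower, and 10 ER chaperones were higher. The interaction at day 5 was called higher for 9 and lower for 2 of the cytosolic and higher for 10 of the ER chaperones. These counts also hold a day 0 difference, since 8 of the 19 cytosolic and 9 of the 14 ER chaperones were called lower in Abcb10-null cells then. Of 13 tested genes of mitochondrial stress signalling, 10 were higher and *Eif2ak1* lower at day 5, where 19.8% of all genes were higher. The median log2 difference was 1.77, and 2.58 without WT replicate 5. At day 0, 8 of these 13 were called lower in Abcb10-null cells, against 16.2% of all genes. The largest day 5 rise was that of *Chac1*, a glutathione-degrading enzyme, from 4.91 ± 7.43 to 96.9 ± 26.5 CPM (4.27 ± 0.66, adjusted p = 0.000365). *Mthfd2* and *Psat1*, enzymes of one-carbon and serine synthesis, were higher by 2.22 ± 0.34 and 1.84 ± 0.27. *Hsf1*, the heat shock factor, was lower at day 2 (log2 -1.41 ± 0.30, adjusted p = 0.00602) and not called at day 5 (-0.08 ± 0.25).

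**Figure D5:**
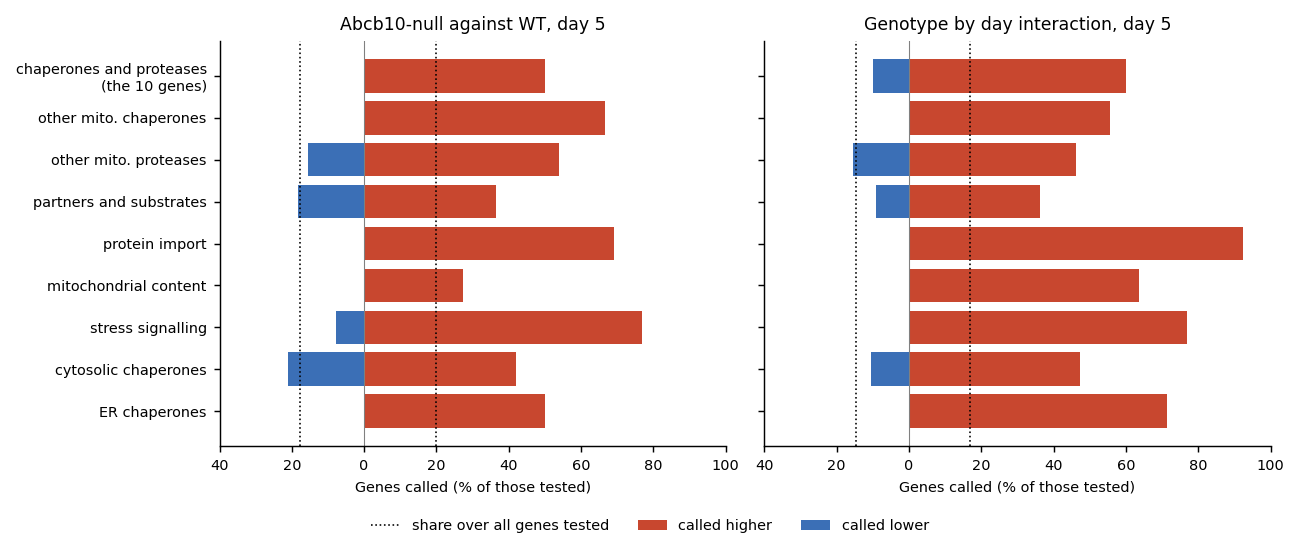
Share of the tested genes of each list called higher (red, right of 0) or lower (blue, left of 0) at day 5, for Abcb10-null against WT (left) and for the genotype by day interaction (right), in percent, with dotted lines at the shares over all genes tested (19.8% higher and 17.8% lower on the left). Protein import shows 9 of 13 genes higher on the left and 12 of 13 on the right.

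The genes whose log2 CPM was most like that of each of the 10 over the 30 libraries, among 14702 genes, were taken as a description, since much of such likeness follows the 6 groups. *Hspd1* was nearest to *Dnajc2* (r = 0.994), *Rpf2* and *Eif2b1*, and *Hspe1* to *Mrpl55* (0.989), *Snu13* and *Nup37*. *Hspa9* was nearest to *Xpot* (0.976), *Eif3c* and *Eprs*, and *Lonp1* to *Ndufa10* (0.956), *Galnt6* and *Hspa9* itself (0.950). *Trap1* was nearest to *Mrpl2* (0.987), *Acy1* and *Timm44*, *Clpp* to *Nhp2* (0.982), and *Afg3l2* to *Nop9* (0.976), *Gcsh* and *Ruvbl1*. The nearest genes of *Clpx* (*Mtmr1*, 0.838), *Oma1* (*Sgo1*, 0.871) and *Yme1l1* (*Sept7*, 0.906) were less close.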

How the data were processed

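Total RNA was depleted of ribosomal and globin transcripts, and stranded libraries were sequenced, aligned to GRCm38 with STAR 2.6.1b and summarized per Ensembl gene with featureCounts 1.6.3, all by the authors. The deposited table holds raw read counts per gene. The strand and multimapping settings are not given in the sources used here. Groups came from the sample labels, and all 30 libraries (9906783 to 20157768 counts) were used. The members and gene lists were chosen with earlier results of these data known.

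Each comparison was fitted on its own groups' libraries with R 4.3.3 and edgeR 4.0.16 (TMM, filterByExpr, glmQLFit, glmQLFTest), with Benjamini-Hochberg adjusted p under 0.05 over all genes. The standard error is the absolute log2 fold change divided by the square root of F. CPM values use TMM factors over the 30 libraries. Processed pseudogene copies of *Hspd1*, *Hspe1* and *Hspa9* held at most 0.38% of the counts of their parent gene. Alternatives were DESeq2 1.42.0, its size factors in edgeR, all genes with at least 1 count, at least 10 counts in every library, all 30 libraries in one fit, 6210 globin, mitochondria-encoded, histone and small non-coding RNA genes left out, the replicate number as a block, plain library totals for levels, and each library left out in turn. The fits were tested on simulated data.

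Named genes were the 10 members, the 3 genes most like each over the 30 libraries, the genes with the largest called rise and fall in each list, and *Abcb10*, *Atf4*, *Atf5*, *Ddit3*, *Dele1*, *Eif2ak1*, *Opa1*, *Alas1*, *Alas2*, *Phb* and *Phb2*; further list genes in the text were picked for their role after their values were seen. Some genes that the rule names are not reported here. Replicates varied beyond counting noise (chi-square per degree of freedom of at least 6.48), and the labels call them biological replicates. GENCODE M21 gave positions and lengths.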

Additional observations from a re-analysis of the deposited data

Results flagged for a closer look

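In 5 of the 60 groups of 5 libraries (10 genes in 6 groups), one library lay far from the other 4 by Dixon's criterion (gap over range above 0.71), where chance gives about 1 in 20. *Hspa9* in WT day 5 replicate 5 was 791 CPM against 228 to 293, and *Lonp1* in the same library was 406 CPM against 147 to 190. *Trap1* in WT day 0 replicate 1 was 327 CPM against 311 to 312, *Yme1l1* in WT day 2 replicate 3 was 475 CPM against 345 to 363, and *Afg3l2* in WT day 2 replicate 4 was 213 CPM against 173 to 183.

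The change from day 0 differed between the genotypes by the interaction term of edgeR's quasi-likelihood test. At day 2 the log2 interaction was 0.77 for *Hspd1*, 0.73 for *Hspe1*, 1.38 for *Hspa9*, 0.42 for *Trap1* and 0.65 for *Clpp* (adjusted p from 0.00146 to 0.0282). At day 5 it was 0.83 for *Hspd1*, 0.97 for *Hspe1*, 2.40 for *Hspa9*, 0.67 for *Trap1*, 0.90 for *Lonp1*, 0.70 for *Clpp* and -0.43 for *Yme1l1* (adjusted p from 6.87e-06 to 0.0405).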

How the results depend on the processing

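Of 630 tests of the 10 genes under alternatives that kept all libraries, 605 kept direction and side of the threshold, 11 lost the call, 10 gained one and 4 changed sign, and the cause was not tested. The counts of genes called at day 5 changed by less than 1.5 times. One fit of all 30 libraries called 1 of the 10 genes in place of 3 between the genotypes at day 0 (1584 genes of the whole table in place of 4642), 7 in place of 4 at day 2, and 3 in place of 5 for the day 2 interaction. Without one library the day 2 count ranged from 2 to 6, and that of the whole table (4151 with all) from 2665 to 5357.

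Same-numbered libraries were not treated as paired, because the study states no pairing. Over 75 pairs their deviations correlated with r from -0.26 to 0.43 (median -0.0145), over 0.1 in 8. Such correlations cannot show whether these cultures were handled together. With the replicate number as a block, *Clpx* at day 2 (0.29, adjusted p = 0.098) and *Yme1l1* in Abcb10-null cells at day 2 against day 0 (-0.29, adjusted p = 0.0658) lost their calls in edgeR's test, and the other calls of the 10 genes were kept.

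The values that changed sign were not called over all libraries. Leaving out one library, *Hspa9* at day 2 against day 0 in Abcb10-null cells ranged from -0.29 to 0.029, *Clpx* at day 5 from -0.017 to 0.10 between the genotypes, -0.062 to 0.077 in WT, -0.050 to 0.034 in Abcb10-null cells and -0.077 to 0.030 for the interaction, and *Yme1l1* from -0.15 to 0.035 for the day 2 interaction. At day 0 between the genotypes *Oma1* ranged from -0.046 to 0.033, *Dele1* from -0.091 to 0.080 and *Opa1* from -0.077 to 0.012. *Ddit3* ranged from -0.045 to 0.97 and *Dele1* from -0.17 to 0.038 in WT at day 5, *Opa1* from -0.13 to 0.036 for the day 2 interaction, *Alas1* from -0.12 to 0.10 between the genotypes and -0.20 to 0.012 in WT at day 2, and *Alas2* from -0.13 to 0.059 for the day 5 interaction. With DESeq2's size factors *Oma1* and *Dele1* at day 0 were -0.013 and -0.009, with DESeq2 -0.0085 and -0.0045, and without globin, mitochondria-encoded, histone and small RNA genes -0.0049 and -0.0007. Under the block *Dele1* at day 0 was -0.0077, *Opa1* 0.0038 (day 2 interaction) and *Alas1* 0.013 (day 2). With all genes of at least 1 count *Clpx* in WT at day 5 was -0.014, *Alas1* at day 2 0.013 and *Alas2* 0.0093 (day 5 interaction). *Alas1* at day 2 was 0.037 in the fit of all libraries and 0.026 without the globin and related genes, where *Alas2* was 0.0079.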
